A study of Neurospora crassa with 24 samples.

Results

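In *Neurospora crassa*, 245 of the 9412 genes with enough counts to be tested were high in wild-type (WT) tissue in the light and also high in ∆*ve-1* tissue in the dark, relative to WT tissue in the dark. They were chosen on measured values: a mean in WT light at least 4 times the mean in WT dark, a mean in ∆*ve-1* dark at least 4 times the mean in WT dark, every library of both conditions above every WT dark library, and a WT light mean of at least 10 CPM (the gene's reads relative to the library's total, scaled with the trimmed mean of M values, TMM). These values describe the genes and support nothing further, and both ratios share the WT dark libraries. With CPM of the library total and no TMM factors 111 of the 245 met the rule, and no other gene did: the factors were 0.69 to 0.88 in WT light and 0.66 to 0.90 in ∆*ve-1* dark, against 1.18 to 1.41 in WT dark. Over all 9412 genes, 372 genes (3.95%) had both means at least 4 times the WT dark mean.

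The study asked how light and the velvet protein VE-1 act on sexual development. RNA was sequenced from sexual-development tissue collected 1 day before fertilization, from plates of nitrogen-poor crossing medium held at 22 °C in light or in darkness. The 8 conditions were the strain labelled ∆*ve-1* ∆*wc-1* (deletion of the velvet gene and of the photoreceptor gene *wc-1*) in light and in the dark, the strain labelled ∆*wc-1* in light and in the dark, ∆*ve-1* in light and in the dark, and WT in light and in the dark, with 3 libraries each. Tissue of biological replicates was pooled for each sample, so p-values measure the spread between these pools, which may be partly technical. No treatment other than light was applied, and no library came from a fertilized plate.

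VE-1 is the *N. crassa* member of the fungal velvet proteins, nuclear regulators that couple light to the balance between asexual and sexual development. WC-1 is a blue-light photoreceptor and transcription factor, and in the light the White Collar Complex activates genes for carotenoids, clock components and conidia. Conidia are the asexual spores of *N. crassa*, formed on aerial hyphae, whereas protoperithecia are the female structures that wait for a mating partner.

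The libraries were checked against their labels. *ve-1* had 1.60 to 8.39 CPM in the 12 libraries labelled as *ve-1* mutants, against 61.3 to 291 CPM in the other 12. *wc-1* was not lower where its label calls for deletion: it had 12.7 to 129 CPM in the 12 libraries whose label includes a *wc-1* mutation, against 7.12 to 49.7 CPM in the other 12. The light-induced photoreceptor gene *vvd* did behave differently in those libraries, with means of 19.2 CPM in light and 20.7 CPM in the dark in the strain labelled ∆*ve-1* ∆*wc-1* and 4.49 CPM in light and 5.74 CPM in the dark in the strain labelled ∆*wc-1*, against 781 CPM in light and 13.9 CPM in the dark in WT. The counts cannot tell whether part of *wc-1* is still transcribed, so both strains are called by their labels. The summed level of 5 protoperithecial markers, none of them among the 245 genes, was 723 to 34646 CPM over all libraries. These markers did not move together. From WT dark to ∆*ve-1* dark the mean of the pheromone gene *ccg-4* went from 247 to 7929 CPM. In the same conditions *poi-2* went from 2792 to 166 CPM and *ham-7* from 377 to 49.5 CPM. *pre-1* (6.66 and 7.08 CPM) and *per-1* (26.9 and 25.8 CPM) changed little. The sum is therefore no measure of the amount of protoperithecia.

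Total counts were 30246878 to 42697941 per library. The libraries differed in how far a few genes dominated them. The 10 most abundant genes held 15.2% to 27.1% of the counts in 11 libraries (all 3 of WT light, all 3 of ∆*ve-1* dark, ∆*ve-1* light replicates 2 and 3, replicate 1 labelled ∆*wc-1* light, and replicate 2 of each condition labelled ∆*ve-1* ∆*wc-1*) and 6.41% to 9.31% in the other 13. These 11 libraries also had 129 to 1388 of the 9412 tested genes at 0 counts, the most in replicate 1 labelled ∆*wc-1* light, against 59 to 136 in the other 13. Among genes with 100 to 1000 counts, the count was an even number for 64.7% to 93.3% in the 11, against 59.8% to 65.5% in the other 13. The part of these properties in the results was not tested beyond the alternatives given. The 245 genes themselves held 26.1% to 42.6% of the counts in those 11 libraries, against 4.07% to 13.1% in the other 13. All 6 libraries that were required to be high by the rule are of the dominated kind and all 3 WT dark libraries are not, so light, velvet loss and this property of the libraries cannot be told apart in the choice of the genes. Of the conditions the rule did not use, ∆*wc-1* dark, as labelled, held no dominated library (6.70% to 7.15%). The others held libraries of both kinds. The tested comparisons between them are given below with and without the 3 dominated libraries labelled ∆*wc-1* or as the double mutant. In bulk tissue, a change in the amount of a cell type and a change in RNA per cell cannot be told apart.

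The median level of the 245 genes was 210 to 229 CPM in the WT light libraries and 186 to 299 CPM in ∆*ve-1* dark, against 19.3 to 34.8 CPM in WT dark. In the conditions outside the rule it was 60.4 to 308 CPM in light and 61.6 to 346 CPM in the dark in libraries labelled ∆*ve-1* ∆*wc-1*, 18.0 to 79.8 CPM in light and 15.4 to 34.3 CPM in the dark in those labelled ∆*wc-1*, and 83.1 to 354 CPM in ∆*ve-1* light. The libraries labelled as *ve-1* mutants all had medians above every WT dark library, and those labelled ∆*wc-1* stayed at 34.3 CPM or lower except for replicate 1 in light. Of the 245 genes, 115 had their highest condition mean in ∆*ve-1* dark, 65 in WT light and 32 in ∆*ve-1* light, and 142 had their lowest in ∆*wc-1* dark, as labelled, 64 in ∆*wc-1* light and 39 in WT dark. The condition means of ∆*ve-1* dark were above those of WT light for 161 of the 245, with a median ratio of 1.15.

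**Figure D1:**
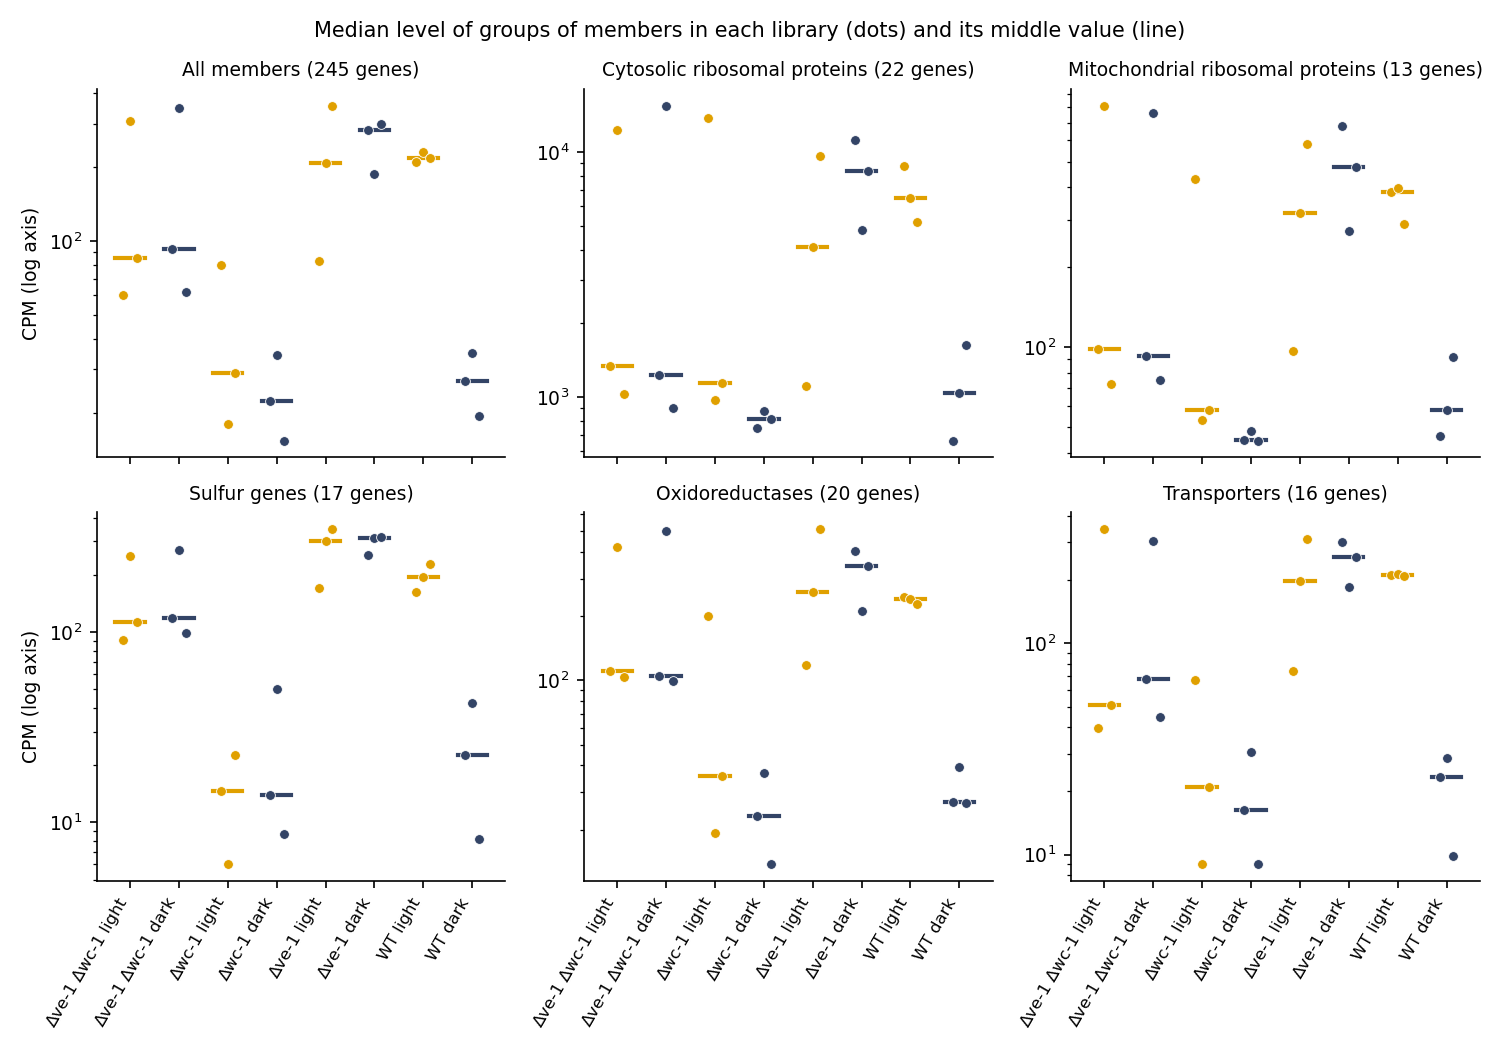
Median CPM (log axis) of the 245 genes and of 5 groups of them in each of the 24 libraries, with strains as labelled, yellow for light and blue for dark. Dots are libraries and lines their middle value. Cytosolic ribosomal protein genes reached 13786 CPM in replicate 1 labelled ∆*wc-1* light, while sulfur genes stayed at 14.6 CPM in that library.

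By annotation, the 245 genes comprised 22 genes for cytosolic ribosomal proteins, 13 for mitochondrial ribosomal proteins, 3 ribosomal RNA genes, 17 genes of sulfur uptake and metabolism, 20 oxidoreductases, 16 transporters, 12 carbohydrate-active enzymes, 6 signalling genes, 4 cell wall protein genes, 2 transcription factors, 2 proteases, 1 polyketide synthase, 7 non-coding RNAs, 48 genes with another named product and 72 genes for hypothetical proteins. The groups of ribosomal and sulfur genes were formed after the 245 genes had been seen. Their median WT light to WT dark ratios were 7.07 for cytosolic ribosomal proteins, 7.40 for sulfur genes and 7.13 for all 245, and their median ∆*ve-1* dark to WT dark ratios were 8.09, 11.4 and 8.89 in the same order. They differed further in the libraries the rule did not use, as described below.

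Of a list of 11 conidiation genes 4 belonged to the 245 (*eas*, *con-6*, *con-10* and *fl*), of 15 light-response genes 3 (*cry*, *bli-4* and *nop-1*), and of 13 genes of sexual development none. The canonical light genes *vvd*, *frq*, *al-1*, *al-2* and *al-3* were not among them, since their ∆*ve-1* dark means did not reach 4 times WT dark.

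*eas*, on chromosome II (3570905 to 3572798 in the NC12 assembly), encodes the hydrophobin that forms the rodlet layer of conidia. WT light gave 132521, 92964 and 60746 CPM and ∆*ve-1* dark 10637, 18412 and 27568 CPM, against 1550, 1073 and 144 CPM in WT dark. WT light means were 103 times and ∆*ve-1* dark means 20.5 times those of WT dark. In libraries labelled ∆*ve-1* ∆*wc-1* it had 6817, 7061 and 6248 CPM in light and 9995, 10118 and 6349 CPM in the dark, against 299, 1334 and 2874 CPM in light and 691, 2517 and 144 CPM in the dark in those labelled ∆*wc-1*. The groups did not overlap in either light condition. The difference in the dark passed the test (log2 fold change 2.98, SE 0.98, adjusted p = 0.0478), and that in light did not (2.16, SE 0.94, adjusted p = 0.138). The dark call was lost in 10 of 19 alternatives (adjusted p up to 0.181), among them leaving out replicate 1 or 3 labelled ∆*wc-1* dark or replicate 1 or 2 labelled ∆*ve-1* ∆*wc-1* dark. Its level in ∆*ve-1* light was 22544, 27103 and 29170 CPM, below every WT light library.

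*con-6* and *con-10*, genes expressed during conidiation, had the highest ratios of ∆*ve-1* light to ∆*ve-1* dark. *con-6* (chromosome III, 5205042 to 5205927) had 7693, 23808 and 30919 CPM in ∆*ve-1* light, against 969, 2286 and 2909 CPM in ∆*ve-1* dark. That 10.1-fold ratio was the highest of the 245 genes, followed by *con-10* with 4.80 and by NCU08770, the hypothetical gene beside *con-6*, with 3.99. WT gave the same picture for *con-6*, with 3875, 19258 and 17230 CPM in light, against 175, 419 and 17.2 CPM in the dark. In libraries labelled ∆*ve-1* ∆*wc-1*, *con-6* had 458, 855 and 2858 CPM in light and 1565, 2701 and 1069 CPM in the dark, which overlap. All 6 of those libraries lay above all 6 labelled ∆*wc-1*, which had 27.4, 19.9 and 106 CPM in light and 132, 267 and 24.97 CPM in the dark. *con-6* was higher in the strain labelled ∆*ve-1* ∆*wc-1* than in that labelled ∆*wc-1* in the dark (log2 fold change 3.66, SE 1.10, adjusted p = 0.0332) and in light (4.77, SE 1.16, adjusted p = 0.0105), but without the 3 dominated libraries of these strains neither passed (adjusted p = 0.0716 and 0.0572).

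*con-10* (chromosome IV, 4364944 to 4365763) varied less among the libraries labelled ∆*wc-1*. It had 2328, 3683 and 393 CPM in the dark and 345, 1791 and 5238 CPM in light in libraries labelled ∆*ve-1* ∆*wc-1*, against 84.8, 111 and 86.0 CPM in the dark and 61.7, 66.2 and 87.9 CPM in light in those labelled ∆*wc-1*. Both differences passed the test, with log2 fold changes of 4.50 (SE 0.96, adjusted p = 0.00522) in the dark and 5.09 (SE 0.99, adjusted p = 0.00254) in light, and both held without the 3 dominated libraries (adjusted p = 0.0162 and 0.0190). The dark call held under all 19 alternatives and the light call was lost in edgeR on the 6 libraries compared (adjusted p = 0.129). *fl*, which encodes the zinc-finger regulator required for macroconidia, had smaller differences. It had 374, 202 and 95.8 CPM in the dark in libraries labelled ∆*ve-1* ∆*wc-1*, against 45.6, 78.6 and 12.3 CPM in those labelled ∆*wc-1* (log2 fold change 2.30, SE 0.64, adjusted p = 0.0235), a call lost in 7 of 19 alternatives (adjusted p up to 0.133).

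*nop-1*, which encodes an opsin-like retinal-binding protein, was higher in every ∆*ve-1* dark library than in any WT light library. Its levels were 4827, 3060 and 3863 CPM in ∆*ve-1* dark and 691, 1347 and 874 CPM in WT light, against 256, 312 and 149 CPM in WT dark. It was also high in the dark in libraries labelled ∆*ve-1* ∆*wc-1* (2895, 8319 and 833 CPM, against 288, 425 and 239 CPM in those labelled ∆*wc-1*; log2 fold change 3.66, SE 0.82, adjusted p = 0.00689), and the call was lost only without the second of these libraries (adjusted p = 0.0522). *cry* (a DASH-type cryptochrome) and *bli-4* (a blue-light-induced gene) rose by 2.78 (SE 0.77, adjusted p = 0.0222) and 2.39 (SE 0.70, adjusted p = 0.0287) on the log2 scale in the same comparison, with the call lost in 5 of 19 alternatives for *cry* (adjusted p up to 0.126) and in 7 for *bli-4* (up to 0.131). Within ∆*ve-1*, *bli-4* had 608, 607 and 882 CPM in light, against 215, 182 and 220 CPM in the dark, and the groups did not overlap.

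The summed level of 7 conidial markers, 4 of which belong to the 245, was 85719 to 139985 CPM in WT light and 19238 to 37071 CPM in ∆*ve-1* dark, against 1198 to 3736 CPM in WT dark. Most of it was *eas* in WT light (mean 95410 CPM) and in ∆*ve-1* dark (mean 18872 CPM). The rule chose *eas* for its high levels there, so this sum supports nothing further. The 3 markers outside the 245 (*con-8*, *con-13* and *cat-1*) summed to 2234 to 4979 CPM in WT light and 4425 to 6145 CPM in ∆*ve-1* dark, against 892 to 1984 CPM in WT dark. Of these, *con-8* had the highest means (2933, 4429 and 1231 CPM in the same order). *con-13* overlapped between ∆*ve-1* dark (4.72 to 105 CPM) and WT dark (0.489 to 5.56 CPM), whereas *con-8* and *cat-1* did not. Whether the amount of conidia differed between plates was not tested. In the strain labelled ∆*ve-1* ∆*wc-1* against that labelled ∆*wc-1*, 4 of the 11 conidiation genes were higher in the dark and 4 in light, with none lower, where 7.09% of all genes tested were called higher and 5.4% lower in the dark and 6.6% and 5.94% in light. Of the 15 light-response genes 4 were higher in the dark, where *frq* joined the 3 named above, and 6 in light, with none lower. Of the 13 genes of sexual development 1 was higher and 4 were lower in the dark, and 2 were higher and 3 lower in light, beside the same shares of all genes.

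**Figure D2:**
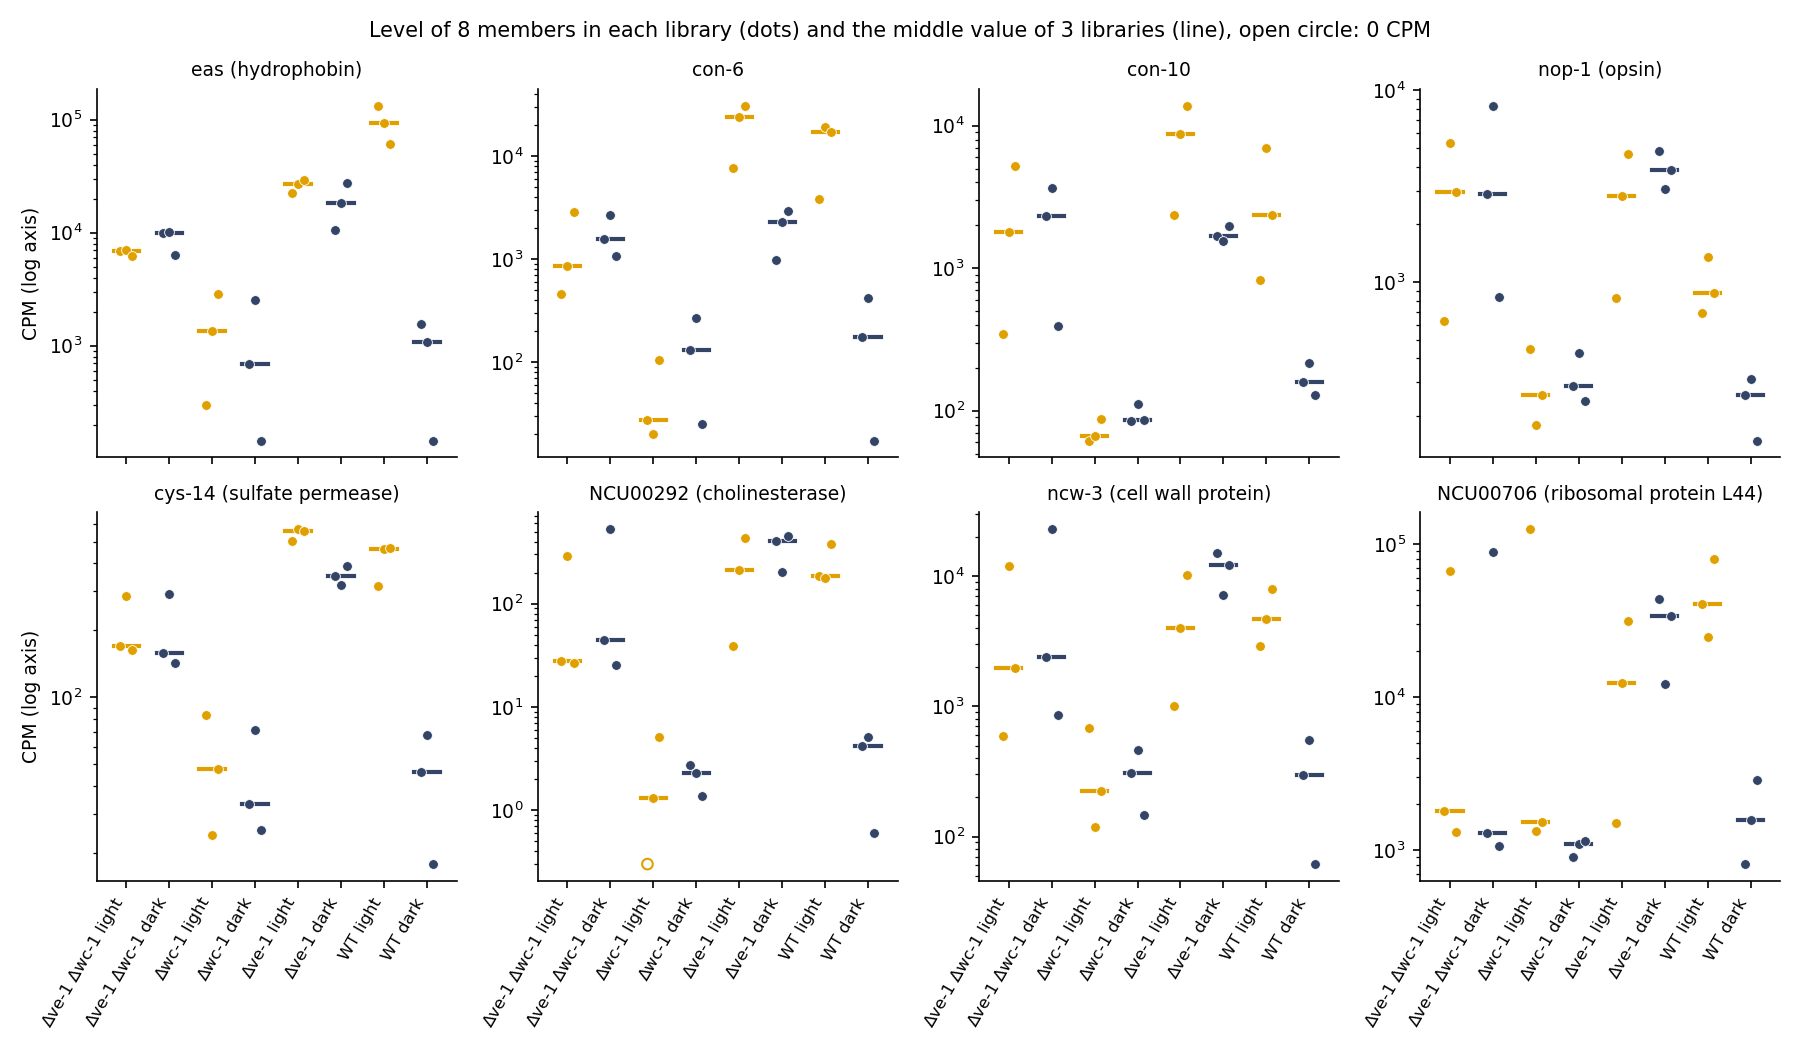
CPM (log axis) of 8 of the genes in each of the 24 libraries, strains as labelled, yellow for light and blue for dark. Dots are libraries, lines the middle value of 3, and the open circle a library with 0 CPM. *con-10* lay at 61.7 to 111 CPM in all 6 libraries labelled ∆*wc-1*, whereas the L44 ribosomal protein gene reached 125400 CPM in one of them.

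The 17 sulfur genes were part of 50 such genes tested. In *N. crassa*, CYS-3 is the transcription factor that turns on sulfur acquisition when sulfur is limiting, and SCON-2 is an F-box protein that restrains it. Uptake was represented by the sulfate permease genes *cys-14* and NCU03235 (annotated *cys-13*) and by the methionine permease genes NCU02195 and NCU04942, scavenging by the arylsulfatase gene *ars-1*, by 4 taurine dioxygenase genes and by an alkanesulfonate oxygenase gene, and assimilation by the adenylyl-sulfate kinase gene NCU09896 and by the sulfite reductase gene *cys-2*. Sulfur genes outside the naming rule were chosen after their values were seen.

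*cys-14* (chromosome IV, 3375754 to 3380167) reached 317, 462 and 467 CPM in WT light and 351, 320 and 390 CPM in ∆*ve-1* dark, against 46.0, 67.7 and 17.9 CPM in WT dark. In libraries labelled ∆*ve-1* ∆*wc-1* it had 159, 290 and 143 CPM in the dark and 171, 284 and 163 CPM in light, against 33.3, 71.6 and 25.3 CPM in the dark and 83.7, 24.1 and 47.6 CPM in light in those labelled ∆*wc-1*. The strains did not overlap in either light condition. The difference between strains passed the test in the dark (log2 fold change 2.19, SE 0.50, adjusted p = 0.00776) and in light (1.99, SE 0.50, adjusted p = 0.0120). Over the 19 alternatives the call was lost in 1 in the dark (highest adjusted p = 0.0586) and in 2 in light (highest adjusted p = 0.184). *ars-1* (chromosome VII, 2005289 to 2007359), which releases sulfate from aromatic esters, had 13.2, 17.7 and 14.6 CPM in the dark in libraries labelled ∆*ve-1* ∆*wc-1*, against 1.02, 2.63 and 0.350 CPM in those labelled ∆*wc-1* (log2 fold change 3.51, SE 0.91, adjusted p = 0.0158), a call lost in 3 of the alternatives (highest adjusted p = 0.0894). The taurine dioxygenase gene NCU02196 and the methionine permease gene NCU02195 are neighbours on chromosome VII. NCU02196 had 132, 186 and 122 CPM in the dark in libraries labelled ∆*ve-1* ∆*wc-1*, against 9.29, 22.6 and 6.32 CPM in those labelled ∆*wc-1* (log2 fold change 3.52, SE 0.66, adjusted p = 0.00216), and this dark call held under all 19 alternatives.

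In all, 11 of the 17 sulfur genes were higher in the strain labelled ∆*ve-1* ∆*wc-1* than in that labelled ∆*wc-1* in the dark and 11 in light, and none was lower, against 7.09% of all genes called higher and 5.4% lower in the dark and 6.6% and 5.94% in light. Of all 50 sulfur genes, 15 were higher and 2 lower in the dark, and 18 were higher and 2 lower in light. In replicate 1 labelled ∆*wc-1* light, the dominated library with 1388 tested genes at 0, 10 of the 17 were below the mean of the libraries labelled ∆*wc-1* dark. In the 2 dark libraries labelled ∆*ve-1* ∆*wc-1* that were not dominated, all 17 were at least 2.13 times that mean, with a median of 3.53. Over the 17 genes that carry a *cys*, *met* or *scon* symbol in RefSeq, a list made by name and not by value, 3 belonged to the 245 (*cys-14*, *cys-2* and *cys-16*). In the dark comparison 6 of these 17 genes were higher and 1 (*met-8*) was lower, with a median log2 fold change of 0.62, against 0.05 over all genes tested. *scon-2* was among the higher ones (log2 fold change 1.44, SE 0.42, adjusted p = 0.0287). *cys-3* itself had means of 181 CPM in the strain labelled ∆*ve-1* ∆*wc-1* in the dark, against 186 CPM in that labelled ∆*wc-1*. In light they were 209 CPM, against 116 CPM, a difference that did not pass the edgeR test (log2 fold change 0.84, SE 0.38, adjusted p = 0.149). In the conditions of the rule *cys-3* had 310 CPM in WT light and 271 CPM in ∆*ve-1* dark, against 164 CPM in WT dark.

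A block of 6 of the genes lay side by side on chromosome VII between positions 4157036 and 4172944 of NC12, with a single short non-coding gene, NCU14144, among them. They are NCU05883 and NCU05885 (monooxygenases), NCU05884 (a transporter of the major facilitator superfamily), NCU05886 (a DUF895 membrane protein), NCU05887 (an oxidoreductase) and NCU05888 (annotated as a dibenzothiophene desulfurization enzyme). By that annotation NCU05888 is also counted among the sulfur genes above. The median level of the 6 genes was 216, 427 and 283 CPM in WT light and 367, 327 and 468 CPM in ∆*ve-1* dark, against 16.3, 30.5 and 1.02 CPM in WT dark. In libraries labelled ∆*ve-1* ∆*wc-1* it was 145, 451 and 120 CPM in the dark and 108, 419 and 134 CPM in light, against 10.2, 37.4 and 2.54 CPM in the dark and 3.02, 2.93 and 14.7 CPM in light in those labelled ∆*wc-1*. None of the 6 exceeded 25.3 CPM in the dominated library labelled ∆*wc-1* light, where 1388 of the tested genes had 0 counts.

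In the dark, 5 of the 6 were higher in the strain labelled ∆*ve-1* ∆*wc-1* than in that labelled ∆*wc-1*, with log2 fold changes of 2.90 to 4.38, and in light all 6 were, with 3.61 to 5.38. Without the 3 dominated libraries NCU05883 (adjusted p = 0.0288) and NCU05885 (adjusted p = 0.0130) passed in the dark, and NCU05885 alone in light (adjusted p = 0.0189). NCU05888 missed the threshold in the dark (3.30, SE 1.45, adjusted p = 0.133): it had 174, 759 and 121 CPM in the strain labelled ∆*ve-1* ∆*wc-1*, against 11.6, 92.2 and 2.87 CPM in that labelled ∆*wc-1*, which do not overlap. NCU14144 had a mean of 7.46 CPM in the strain labelled ∆*ve-1* ∆*wc-1* in the dark, against 0.539 CPM in that labelled ∆*wc-1*, and stayed outside because its WT light mean of 5.68 CPM was under 10 CPM. The outer neighbours differed less: NCU05882 had 87.0 CPM in WT light and 213 CPM in ∆*ve-1* dark, against 135 CPM in WT dark, and NCU05889 had 161 CPM in WT light and 139 CPM in ∆*ve-1* dark, against 123 CPM in WT dark. NCU05882 overlaps NCU05883 by 1463 bases, so reads there can be told apart only by strand, which the authors' counting took into account. Over the genome, 36 of the 242 genes placed on chromosomes had a neighbour that also belonged to the 245. No such share was computed for other genes, so this count does not show clustering. Of the 245 genes, 59 overlap another gene, and some neighbouring pairs overlap each other, such as NCU08329 and NCU08328 (1506 bases).

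**Figure D3:**
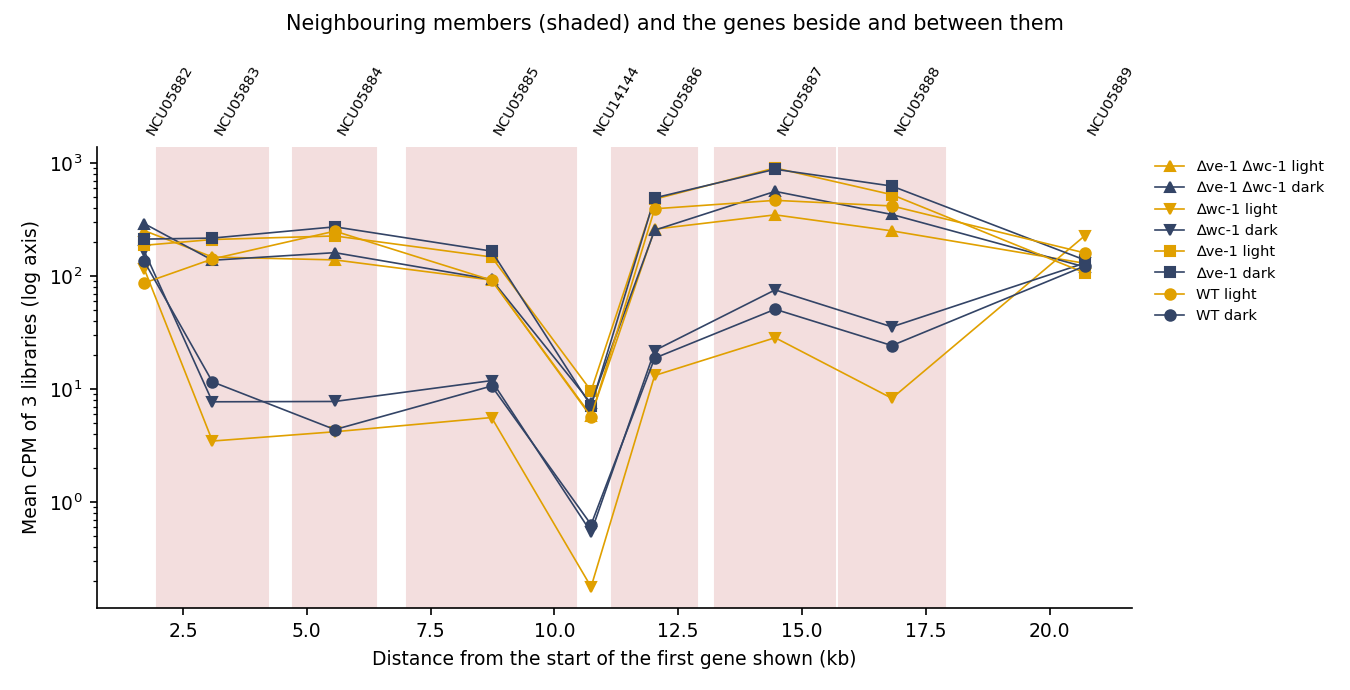
Mean CPM of 3 libraries (log axis) for 9 neighbouring genes on chromosome VII, by distance in kb, with one line per condition (strains as labelled, yellow for light, blue for dark). The 6 shaded genes had means of 92.1 to 907 CPM in the double mutant as labelled, ∆*ve-1* and WT light, against 3.47 to 75.6 CPM in the strain labelled ∆*wc-1* and WT dark, and the unshaded outer genes did not separate this way.

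Ribosomal protein genes were 5 of the 8 genes with the highest WT light means, which also held *eas*, *con-6* and the ribosomal RNA gene NCU17319. NCU00706 encodes protein L44 of the large subunit and is on chromosome I (7485686 to 7487321). Its values were 40769, 24951 and 80119 CPM in WT light and 43733, 12201 and 33927 CPM for ∆*ve-1* dark, against 813, 1567 and 2900 CPM in WT dark. In libraries labelled ∆*ve-1* ∆*wc-1* it had 1295, 88478 and 1060 CPM in the dark, against 903, 1105 and 1151 CPM in those labelled ∆*wc-1*. In light the strain labelled ∆*ve-1* ∆*wc-1* gave 1807, 66575 and 1320 CPM, against 125400, 1341 and 1538 CPM in that labelled ∆*wc-1*. The one high library in each of these conditions was the dominated one, and none was high among those labelled ∆*wc-1* dark. The comparison in the dark did not pass the test (log2 fold change 4.85, SE 1.94, adjusted p = 0.0996), and without the 3 dominated libraries the log2 fold change was 0.16 (adjusted p = 0.941). The ribosomal protein gene *cyh-2*, where mutations give resistance to cycloheximide, and NCU05804 (L19), NCU00979 (P2) and NCU06432 (S12) followed the same libraries.

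All 22 cytosolic ribosomal protein genes were 7.15 to 119 times the mean of the libraries labelled ∆*wc-1* dark in replicate 1 labelled ∆*wc-1* light. In the undominated dark libraries labelled ∆*ve-1* ∆*wc-1*, replicates 1 and 3, they were 1.10 to 1.63 times that mean. None of the 22 passed the test in any comparison. They alone held 10.7% to 29.4% of the counts in the 11 dominated libraries, against 2.22% to 4.50% in the other 13. The 13 mitochondrial ribosomal protein genes lay between, at 1.31 to 2.37 times the mean of ∆*wc-1* dark, as labelled, in those 2 libraries. Of these, 4 were higher in the strain labelled ∆*ve-1* ∆*wc-1* in the dark with all libraries, and none without the 3 dominated libraries. Of all 78 cytosolic ribosomal protein genes tested, 22 belonged to the 245, and in the dark comparison none was higher and 1 was lower. The 3 ribosomal RNA genes, on unplaced sequence, followed the same libraries: NCU17319 had 94020, 15710 and 9666 CPM in WT light and 98424, 66670 and 53281 CPM in ∆*ve-1* dark, against 2086, 2696 and 2667 CPM in WT dark. These 3 genes took up to 7.79% of a library's counts. Reads of ribosomal RNA copies can map to several places, so these values are uncertain.

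**Figure D4:**
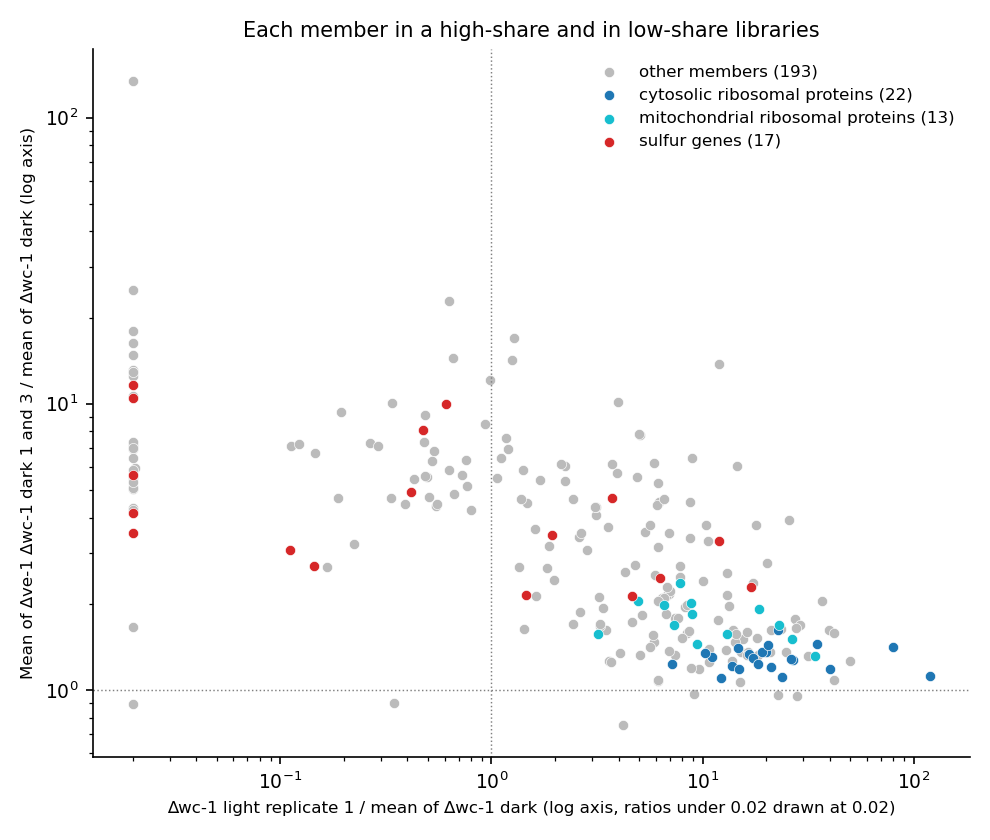
Each of the 245 genes by its ratio to the mean of 3 libraries labelled ∆*wc-1* dark, both axes log: horizontally in the dominated replicate 1 labelled ∆*wc-1* light (ratios under 0.02 drawn at 0.02), vertically in replicates 1 and 3 labelled ∆*ve-1* ∆*wc-1* dark, which were not dominated. Cytosolic ribosomal protein genes sit at the lower right, with 7.15 to 119 against 1.10 to 1.63, and sulfur genes higher and mostly further left, with a median of 0.47 against 3.53.

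Of the 245 genes, 131 (53.5%) were at least 4 times the mean of ∆*wc-1* dark, as labelled, in replicate 1 of ∆*wc-1* light, against 13.1% of all genes tested, and in the mean of replicates 2 and 3 none was, against 0.659%. In the 2 undominated dark libraries labelled ∆*ve-1* ∆*wc-1*, 95 (38.8%) reached 4 times that mean, against 5.37% of all genes tested. Both held for 12 of the genes and neither for 31. No cytosolic or mitochondrial ribosomal protein gene was among the 95. They included 8 sulfur genes, 8 transporters, 9 oxidoreductases, 6 carbohydrate-active enzymes, 4 signalling genes and 36 genes for hypothetical proteins. The part of the dominated libraries in these counts was not tested further.

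The genes with the largest smaller ratio of the rule were of varied function. NCU00292, annotated as a cholinesterase (chromosome III, 3337759 to 3340089), had 185, 178 and 381 CPM in WT light and 401, 203 and 452 CPM in ∆*ve-1* dark, against 4.21, 5.16 and 0.595 CPM in WT dark. Its ratios of 74.7 for WT light and 106 for ∆*ve-1* dark gave the largest smaller ratio of the set. It also had 43.997, 526 and 25.2 CPM in the dark in libraries labelled ∆*ve-1* ∆*wc-1*, against 2.71, 2.28 and 1.37 CPM in those labelled ∆*wc-1* (log2 fold change 6.55, SE 1.49, adjusted p = 0.00751). Without the 3 dominated libraries the log2 fold change was 4.03 (adjusted p = 0.00629). The call was lost in 2 of 19 alternatives, without replicate 3 labelled ∆*wc-1* dark and without replicate 2 labelled ∆*ve-1* ∆*wc-1* dark (adjusted p up to 0.0569). The others were the transporter gene NCU05884 of the block above, NCU09494 and NCU00583 (hypothetical proteins), NCU07578 (a peroxisomal adenine nucleotide transporter), NCU07927 (a mitochondrial carrier), NCU04959 (a secreted glucosidase) and NCU09859 (a metalloprotease). NCU00583 overlaps *cry* by 681 bases, and its largest library had 32.9 CPM.

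NCU09859 and NCU04959 leaned to WT light. NCU09859 had 647, 569 and 304 CPM in WT light and 8.45, 20.0 and 249 CPM in ∆*ve-1* dark, against 2.45, 1.29 and 0.149 CPM in WT dark, and at most 13.4 CPM in any library labelled ∆*ve-1* ∆*wc-1*. The non-coding RNA NCU14029 was alike, with 2512, 3056 and 371 CPM in WT light and 28.3, 30.6 and 207 CPM in ∆*ve-1* dark, against 6.54, 6.30 and 10.5 CPM in WT dark. NCU02663 leaned the other way: this gene, annotated as a lysine biosynthesis gene, reached 107, 59.9 and 39.1 CPM in ∆*ve-1* dark and 11.7, 18.8 and 46.7 CPM in WT light, against 1.28, 1.27 and 1.57 CPM in WT dark. It had 190, 117 and 130 CPM in the dark in libraries labelled ∆*ve-1* ∆*wc-1*, against 1.46, 0.903 and 1.23 CPM in those labelled ∆*wc-1*. This log2 fold change of 6.93 (SE 0.90, adjusted p = 0.000107) was the largest of the 120 called, and it held without the 3 dominated libraries (7.06, adjusted p = 4.44e-05).

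Cell wall genes were few but abundant. *ncw-3*, which encodes a non-anchored cell wall protein, had 1001, 4029 and 10236 CPM in ∆*ve-1* light, against 15044, 7159 and 12226 CPM in ∆*ve-1* dark, a ratio of 0.443. That was among the 3 lowest such ratios, with the xylanase gene *gh10-4* (0.422) and the non-coding RNA NCU14111 (0.352). All 4 cell wall genes, *eas*, *ncw-3*, *ncw-4* and *acw-3*, were higher in the strain labelled ∆*ve-1* ∆*wc-1* than in that labelled ∆*wc-1* in the dark, and 3 of them without the 3 dominated libraries. For the 245 genes together the median ratio of ∆*ve-1* light to ∆*ve-1* dark was 0.772, and 51 genes had the higher mean in light. ∆*ve-1* light replicate 1 was the one library of that strain that was not dominated, and it had the lowest median in the strain, 83.1 CPM. The rule used the dark libraries, so this ratio is a description.

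The comparisons that follow contrasted no condition of the rule. The model was still fitted on every library, so those of the rule entered the filter, the TMM factors and the spread behind each p-value. A gene was called when edgeR's quasi-likelihood test, adjusted by Benjamini and Hochberg over all 9412 genes, gave an adjusted p under 0.05 and an absolute log2 fold change above 1. Velvet loss in the strain labelled ∆*wc-1* was tested in the dark first. Of the 245 genes, 120 were higher in the strain labelled ∆*ve-1* ∆*wc-1* and none was lower, against 7.09% called higher and 5.4% called lower among all genes tested. The median log2 fold change was 2.88, against 0.05 over all genes, and 206 of the 245 did not overlap between strains, against 24.6% of all genes. Calls were spread over sulfur genes (11 of 17), carbohydrate-active enzymes (9 of 12), oxidoreductases (10 of 20), transporters (6 of 16) and hypothetical proteins (40 of 72). The 3 largest rises were those of NCU02663, NCU00292 and NCU09494. Without replicate 2 labelled ∆*ve-1* ∆*wc-1* dark 38 genes were called, and the median was 1.36. Without replicate 1 or 3 labelled ∆*wc-1* dark 44 and 37 were called, and without all 3 dominated libraries 89 (6.24% of all genes), of which 87 were among the 120. DESeq2 on all libraries called 212 higher (12.1% of all genes). A fit without the conditions of the rule called fewer than 120, as given at the end.

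In light, 82 of the 245 genes were higher in the strain labelled ∆*ve-1* ∆*wc-1* than in that labelled ∆*wc-1* and none was lower, against 6.6% called higher and 5.94% called lower among all genes. The median log2 fold change was 1.31, against 0.02 over all genes. The largest fitted rises were those of NCU00583, NCU08429 (symbol *gpr-31* in the study's annotation; 6.24, SE 1.21, adjusted p = 0.00248) and NCU09494 (6.04, SE 1.30, adjusted p = 0.00506). NCU08429 had 50.1, 471 and 276 CPM in light in libraries labelled ∆*ve-1* ∆*wc-1*, against 0, 3.93 and 6.35 CPM in those labelled ∆*wc-1*. NCU00583 had 0.893, 12.4 and 1.29 CPM in the strain labelled ∆*ve-1* ∆*wc-1*, against 0, 0 and 0.118 CPM in that labelled ∆*wc-1*, levels too low for a fold. Of the 82 called in light, 69 were also called in the dark (84.1% of the 82, 57.5% of the 120). These 2 comparisons contrast different libraries, but the same model and the same spread per gene gave both. The overlap is therefore not independent support, and the overlap over all genes was not computed. Without replicate 2 labelled ∆*ve-1* ∆*wc-1* light 52 genes were called and the median was 0.16, without replicate 1 labelled ∆*wc-1* light the median was 2.62, and edgeR on the 6 libraries compared called none. Without the 3 dominated libraries 54 were called (2.91% of all genes), of which 45 were among the 82. The difference between the velvet effect in light and in the dark was called for none of the 245, as for all genes (0.0%). Its edgeR test gave an unadjusted p under 0.05 for 25 of the 245, against 378 of the 9412 genes tested. The median difference was -1.58, against 0.07 over all genes. This difference was fitted only with all libraries. Without the 3 dominated libraries the median log2 fold change of the 245 was 1.36 in the dark and 1.30 in light.

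Light was then tested within both strains. In the strain labelled ∆*wc-1*, none of the 245 genes was called between light and dark by edgeR, as for all genes (0.0%). The same test gave an unadjusted p under 0.05 for 82 of the 245, against 1323 of the 9412 genes tested. DESeq2 on all libraries called 21, all higher in light (2.58% of all genes), DESeq2 on the 6 libraries none (0.797% of all genes higher) and limma-voom 2. The median log2 fold change was 1.23, against -0.07 over all genes, and it was 0.09 without replicate 1 in light. In the strain labelled ∆*ve-1* ∆*wc-1*, none was called by edgeR (0.0% over all genes) or by DESeq2 on all libraries (0.0212% of all genes higher) or on the 6 (0.0106% lower). The edgeR test gave an unadjusted p under 0.05 for 1 of the 245, against 125 of the 9412 genes tested. The median was -0.20. Left out in turn, the libraries moved that median between -1.39 and 1.06. Replicate 1 in the dark and replicate 3 in light of this strain had the highest rank correlation of any pair of the 24 libraries, at 0.992.

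**Figure D5:**
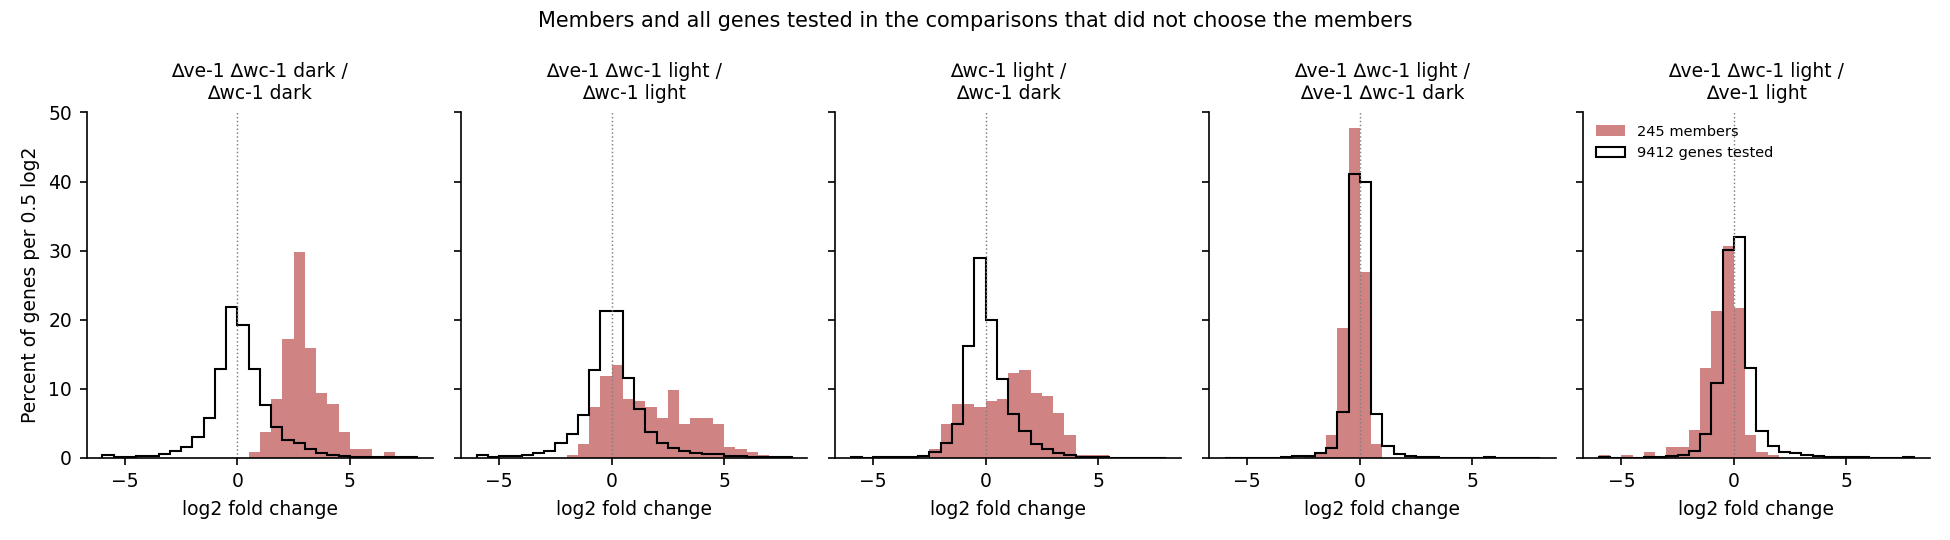
Percent of genes per 0.5 of log2 fold change for the 245 genes (red) and the 9412 genes tested (black line) in the 5 comparisons, strains as labelled, values beyond the ends drawn in the end bars. The 245 are shifted as a whole in the dark comparison of the strains labelled ∆*ve-1* ∆*wc-1* and ∆*wc-1* (median 2.88) and in part in light (median 1.31).

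Last, light-grown tissue labelled ∆*ve-1* ∆*wc-1* was set against light-grown ∆*ve-1*. Here 2 of the 245 genes were lower and none higher, against 0.287% called lower and 0.414% called higher among all genes, and the median log2 fold change was -0.38. NCU02190, an oxysterol-binding protein gene, had 36.8, 42.1 and 29.4 CPM in light in libraries labelled ∆*ve-1* ∆*wc-1*, against 155, 212 and 265 CPM in ∆*ve-1* (log2 fold change -2.54, SE 0.37, adjusted p = 0.00113). NCU01060, a hypothetical protein gene, had 44.1, 65.1 and 157 CPM in the strain labelled ∆*ve-1* ∆*wc-1*, against 250, 639 and 974 CPM in ∆*ve-1* (log2 fold change -2.80, SE 0.64, adjusted p = 0.0425). Both had a higher mean in light than in the dark within ∆*ve-1*, with ratios of 2.12 and 2.64. Of the light-response list, 4 genes outside the 245 were lower in this comparison (*al-1*, *al-2*, *vvd* and *frq*). Without the 3 dominated libraries 21 of the 245 were called lower (0.706% of all genes), and the median was -1.80; 2 of the 3 ∆*ve-1* light libraries were dominated. DESeq2 called 8 lower on all libraries (0.648% of all genes) and 19 on the 6 compared (0.722%). With single libraries left out the median lay between -1.80 and 0.19. Leaving out any of 4 single libraries (∆*ve-1* light replicate 2 or 3, replicate 1 or 2 labelled ∆*ve-1* ∆*wc-1* light) left 1 gene called.

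At the edge of the rule, ratios were continuous. The 3 genes just inside the limit, NCU07843, NCU09929 and NCU08328, had smaller ratios of 4.003, 4.02 and 4.04. The 3 just outside it, NCU00360, NCU09600 and NCU06609, had 3.98, 3.96 and 3.96. The 245 genes had a median length of 1833 bases, against 2169 bases over all genes tested, and were found on all 7 chromosomes, with 23 to 51 genes on each.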

How the data were processed

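RNA-seq of 8 conditions with 3 libraries each was analysed, 24 libraries in all. The authors used FastQC and fastp on the reads, aligned them to NC12 with STAR and counted them per gene with featureCounts of the Subread package according to the library type; the values they deposited are raw counts, not normalized, for 10561 genes. All 24 columns were used.

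Counts were analysed in R 4.3.3 with edgeR 4.0.16: filterByExpr on the 8 conditions left 9412 genes, TMM factors gave CPM, and 1 quasi-likelihood model covering every library and condition was tested per contrast, with Benjamini-Hochberg adjustment over the 9412 genes. limma 3.58.1 and DESeq2 1.42.0 served as alternatives, with other scalings, filters, a replicate block, covariates for library composition, removal of a length trend (lowess span 0.3) and each library left out in turn. The edgeR tests were also run on counts simulated from each gene's mean and spread, with changes added to some genes. Those simulated libraries were otherwise alike in composition and none was dominated, so this check does not cover the dominated libraries. Symbols and positions came from RefSeq (NC12) and products from the annotation columns of the study's supplementary tables.

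The 245 genes and all gene lists were chosen with earlier results of these data known. Named genes were the listed members, the 8 highest in WT light, the 8 with the largest smaller ratio, the 3 either side of the limit, the 3 largest rises and falls called per contrast, the 3 highest and lowest ∆*ve-1* light to dark ratios and runs of 3 or more neighbours; other names were chosen after their values were seen. Replicate numbers paired libraries only between the dark conditions labelled ∆*ve-1* ∆*wc-1* and ∆*wc-1*, where the deviations of same-numbered libraries correlated at 0.17, 0.11 and 0.20. Within the strain labelled ∆*ve-1* ∆*wc-1*, light and dark libraries correlated more strongly, but mostly across numbers. These were light 1 with dark 3 (0.58), light 2 with dark 2 (0.54) and light 3 with dark 1 (0.66). The test of light in that strain took no account of this. Contrasts with WT light, WT dark or ∆*ve-1* dark were not tested, since the rule used those libraries.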

Additional observations from a re-analysis of the deposited data

How the results depend on the processing

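The number of genes meeting the rule was 370 at a ratio of at least 3, 141 at 6 and 111 with CPM of the library total without TMM; the other 4 settings of the rule gave counts within 1.5 times of 245, and leaving out each library in turn gave 226 to 273. The genes called higher in the strain labelled ∆*ve-1* ∆*wc-1* than in that labelled ∆*wc-1* in the dark were 120, and 212 with DESeq2 on all libraries, 59 in a fit without the conditions of the rule, 77 without TMM factors and 37 to 177 with single libraries left out. In light they were 82, and 0 in edgeR on the 6 libraries compared, 139 with the even-number share of a library as covariate, 54 without the 3 dominated libraries and 52 to 96 with single libraries left out. Between the strain labelled ∆*ve-1* ∆*wc-1* and ∆*ve-1* in light 2 genes were called, and 8 with DESeq2 on all libraries, 19 with DESeq2 on the libraries compared, 1 with edgeR on them, 6 with limma-voom, 4 with a covariate for the 10 most abundant genes, 12 with that even-number share, 21 without the 3 dominated libraries, 1 without the conditions of the rule and 1 to 2 with single libraries left out. Between light and dark in the strain labelled ∆*wc-1* none was called, and 21 with DESeq2 on all libraries, 2 with limma-voom and 0 to 2 with single libraries left out. The cause of these differences was not tested. Among the 37 named genes for which direction was checked, no call turned its direction. The alternatives without the 3 libraries, without the conditions of the rule and without TMM for the contrasts were chosen after seeing the data. Of the 120 genes called in the dark, 29 were called under every alternative, and none of the 82 in light. Without TMM the median of all genes in the dark comparison shifted to -0.27, and 223 of 546 calls over all genes were higher, against 667 of 1175 with TMM. The replicate block gave each replicate number 1 effect shared by all 8 conditions, so it was not a paired test of the dark comparison alone. With the block 99 were called in the dark, all among the 120. In the other comparisons, whose numbers did not pair the libraries, the block gave 75 calls in light, 2 against ∆*ve-1* and 0 between light and dark in either strain. Depth limits the lowest genes: NCU00583 had 0 CPM in some libraries and at most 32.9 CPM.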
